A study of Homo sapiens with 12 samples.

Results

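ERBB receptors, MET and the feedback genes of growth factor signaling were followed by RNA-Seq in LNCaP cells, an androgen-sensitive prostate cancer cell line derived from a lymph node metastasis. The members were 10 genes, chosen by name: the receptors EGFR, ERBB2, ERBB3, ERBB4 and MET, and the feedback genes ERRFI1, DUSP6, DUSP4, SPRY1 and SPRY2. They were chosen with earlier results of these data known. All 10 were found among the 34643 gene symbols of the deposited table, and all 10 passed the filter on low counts, which left 15419 genes to test.

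Cells carried a lentiviral pLKO.1-puro vector with either a scramble shRNA (sh_scramble) or an shRNA against TMEFF2 (sh_TMEFF2), driven by the U6 promoter. They were kept for 24 h in hormone-depleted medium with charcoal-stripped serum. They then received 10 nM dihydrotestosterone (DHT, the most potent natural androgen) or ethanol as vehicle for 24 h. Each of the 4 combinations of hairpin and hormone had 3 libraries, and groups are written as the hairpin followed by −DHT for vehicle or +DHT. Per the labels, the 3 repeats had independent treatments and RNA extractions and stemmed from 2 transductions, and the origin of each repeat is not given. Every library is listed at 17 days with its hairpin and 2.5 weeks after transduction. All groups thus had a lentiviral transduction, the drug-selectable vector and the hormone withdrawal in common. The 2 hairpins came in separate vectors, so a difference between the transduced cell populations cannot be told apart from one of the hairpin. Which of the TMEFF2 hairpins was sequenced is not given in the sources used here. TMEFF2 encodes a membrane protein with an EGF-like domain, the kind of fold that the ligands of the ERBB receptors also use.

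In the ERBB pathway a ligand of the EGF family brings 2 receptors together, their kinases are activated, and adaptor proteins pass the signal through RAS to the kinases RAF, MEK and ERK. ERBB2 has no known ligand and acts as a partner, ERBB3 has almost no kinase activity of its own but recruits PI3 kinase, and ERBB4 binds neuregulins. MET is the receptor of hepatocyte growth factor. The pathway switches on its own inhibitors: ERRFI1 (also called MIG6) binds and blocks the kinases of the ERBB receptors, DUSP6 and DUSP4 are phosphatases that remove the activating phosphates of ERK, and SPRY1 and SPRY2 (Sprouty) interrupt the signal between receptor and RAS. In prostate epithelial cells androgens and the ligands of these receptors both drive growth.

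Levels are given as CPM, the count of a gene relative to the normalized size of its library (TMM normalization). CPM is not divided by transcript length, so levels compare libraries for 1 gene and not genes with each other. Libraries held 19450866 to 22612046 estimated counts. Differences are log2 fold changes with their standard errors (SE) from edgeR's quasi-likelihood test, with p-values adjusted by Benjamini-Hochberg over all 15419 genes. A gene was called when it changed by 1.5-fold (0.58 on the log2 scale) or more with an adjusted p no higher than 0.05. The p-values rest on the spread between repeats within groups, estimated jointly over all 12 libraries, so libraries outside a comparison also affect them. As the repeats stemmed from 2 transductions, this is not the spread between 3 independent knockdowns. In bulk RNA, fewer cells with a transcript and less of it per cell cannot be told apart. The luminal prostate markers KLK2, KLK3, HOXB13, FOLH1, KRT8 and KRT18 were all detected, with a summed level of 5948 to 6087 CPM in sh_scramble −DHT, 12041 to 12929 in sh_scramble +DHT, 3723 to 4221 in sh_TMEFF2 −DHT and 4568 to 5631 in sh_TMEFF2 +DHT. KLK3 (prostate-specific antigen) carried most of the step in sh_scramble, from a mean of 1925 to 7495 CPM, while FOLH1 was called lower there, from 2566 to 1392 CPM, and HOXB13 stood at 484 and 377 CPM. In sh_TMEFF2, KLK2 and KLK3 were likewise called higher with DHT. Both were called lower in sh_TMEFF2 than in sh_scramble, without and with DHT, and neither response was called different between the lines. KRT8 and KRT18 were called higher with DHT in sh_scramble alone, and their responses were called different, as was that of FOLH1. The 8 listed markers of basal, stromal, immune and endothelial cells summed to 20.2 to 49.0 CPM, with KRT5, TP63 and COL1A2 under 1 CPM in every library. Of the 5 that could be tested, DHT called 3 in sh_scramble (KRT14 higher, from a mean of 0.033 to 1.05 CPM, and COL1A1 and PTPRC lower, from 18.9 to 12.3 and from 5.04 to 3.35 CPM) and 1 in sh_TMEFF2 (COL1A1 lower). Between the lines 2 were called with DHT (PTPRC higher and KRT14 lower in sh_TMEFF2) and 0 without DHT in edgeR, where 3 had an unadjusted p under 0.05. The part of either marker list in the results was not tested.

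The targeted gene itself was measured at 77.8, 73.8 and 103 CPM in sh_scramble −DHT and at 68.6, 39.3 and 81.7 CPM in sh_TMEFF2 −DHT. With DHT, TMEFF2 stood at 173, 117 and 169 CPM in sh_scramble and at 142, 90.1 and 114 CPM in sh_TMEFF2. The ranges of the lines overlapped with and without DHT, and the differences of −0.43 (SE 0.25, edgeR adjusted p = 0.50) and −0.41 (SE 0.25, edgeR adjusted p = 0.30) were not called. The libraries labelled sh_TMEFF2 are therefore named here by their label, and the size of the knockdown at the mRNA level was not resolved in these libraries. The paper itself reports silencing of TMEFF2 protein in LNCaP cells on a Western blot, for some of its hairpins. It also shows TMEFF2 mRNA levels of cells with these hairpins, which were not examined here.

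Among the members, the DHT response in sh_scramble called 4 of 10, namely ERRFI1, DUSP4 and EGFR higher and ERBB2 lower, where 11.9% of all genes were called, 5.45% higher and 6.45% lower. In sh_TMEFF2 the response called 2 of 10, DUSP4 and SPRY1, both higher, where 4.88% of all genes were called and 3.28% were higher. Between the lines without DHT 1 of 10 was called, SPRY1 lower, where 0.571% of all genes were called and 0.272% were lower. At an unadjusted p under 0.05 these were 3 of 10 members and 13.5% of all genes. With DHT 3 of 10 were lower in sh_TMEFF2, ERRFI1, DUSP4 and EGFR, where 6.77% of all genes were called and 3.74% were lower. The DHT response itself differed between the lines for 1 of 10, ERRFI1, where 4.94% of all genes were called on the adjusted p alone and 3.29% in its direction. Groups without overlap between their libraries were seen for 5 and 5 of 10 members with DHT in sh_scramble and sh_TMEFF2, where 41.8% and 31.3% of all genes had none, and for 4 and 6 of 10 between the lines without and with DHT, where 18.5% and 32.5% had none. The median log2 fold change of the 10 members was 0.31 and 0.01 for the DHT response in sh_scramble and sh_TMEFF2, and −0.10 and −0.36 for sh_TMEFF2 against sh_scramble without and with DHT. Over all genes these medians were −0.01, −0.02, 0.00 and 0.00. The medians of the members include ERBB4, whose counts were too low for its own fold change to be given. The comparisons share groups with each other, so their calls are not independent. The members were chosen with earlier results of these data known, so the shares and medians are a description and not a test of the list.

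**Figure D1:**
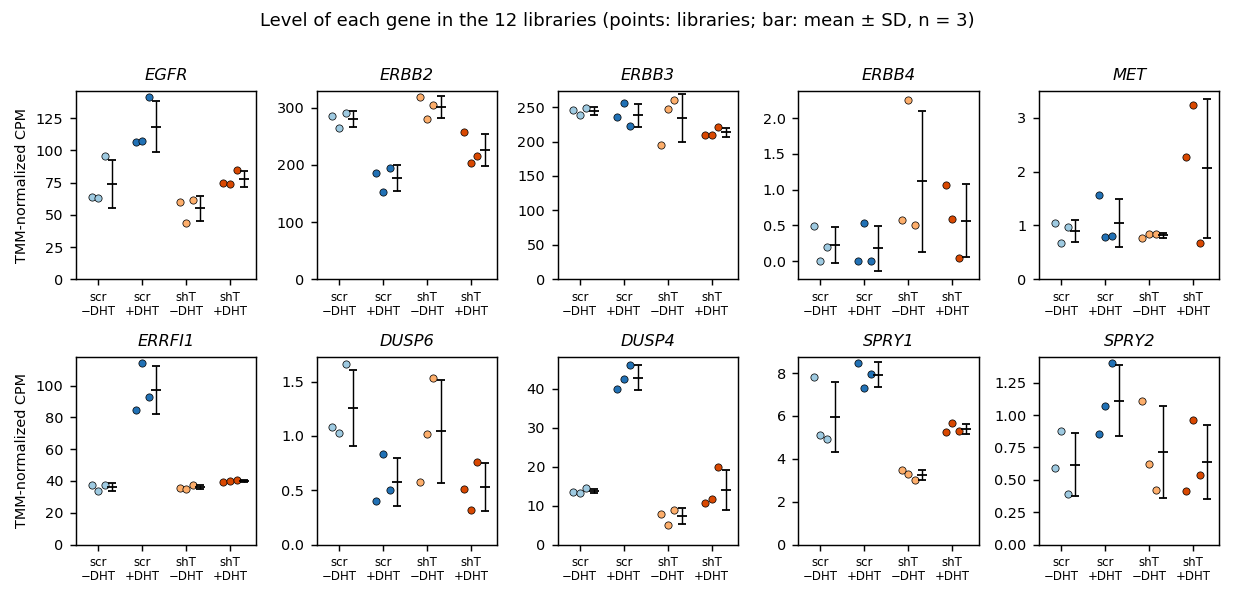
TMM-normalized CPM (vertical axis, linear, a scale for each gene) of the 10 genes in the 12 libraries, with scr for sh_scramble and shT for sh_TMEFF2. Points are libraries and bars the mean ± SD (n = 3). ERRFI1 lies at 85.0 to 114 CPM in sh_scramble +DHT and at 33.4 to 40.8 CPM in the other 9 libraries.

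Promoters are shown for the called members found in RefSeq's promoter table (GRCh38.p14), to show the sequence at the starts of the genes that the comparisons called. Each runs 5′ to 3′ on the gene's strand, from 250 bases before to 50 after the start of transcription. Capitals mark the half-site bound by steroid receptors, AGAACA or its reverse complement TGTTCT. For EGFR both promoters in the table are shown, and for SPRY1 the upstream one.

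ERRFI1, chr1:8026260-8026559, minus strand: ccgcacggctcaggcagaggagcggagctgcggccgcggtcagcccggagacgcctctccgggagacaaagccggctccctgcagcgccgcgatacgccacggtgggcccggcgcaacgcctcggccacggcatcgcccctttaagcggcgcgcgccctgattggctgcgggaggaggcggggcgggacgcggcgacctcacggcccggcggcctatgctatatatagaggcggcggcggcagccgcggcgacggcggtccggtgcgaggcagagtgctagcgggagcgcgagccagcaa
ERBB2, chr17:39687844-39688143, plus strand: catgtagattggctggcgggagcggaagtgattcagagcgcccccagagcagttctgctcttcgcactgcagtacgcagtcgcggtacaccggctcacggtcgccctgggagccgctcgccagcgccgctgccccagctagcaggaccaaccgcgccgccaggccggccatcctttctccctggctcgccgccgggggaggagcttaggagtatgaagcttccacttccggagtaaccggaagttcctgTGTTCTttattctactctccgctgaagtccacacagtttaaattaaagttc
EGFR upstream, chr7:55018767-55019066, plus strand: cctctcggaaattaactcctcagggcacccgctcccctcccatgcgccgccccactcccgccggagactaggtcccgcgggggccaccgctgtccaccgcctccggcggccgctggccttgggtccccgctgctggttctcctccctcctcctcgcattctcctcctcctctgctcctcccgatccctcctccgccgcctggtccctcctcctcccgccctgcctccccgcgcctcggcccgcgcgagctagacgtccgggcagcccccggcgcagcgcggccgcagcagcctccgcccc
EGFR downstream, chr7:55109589-55109888, plus strand: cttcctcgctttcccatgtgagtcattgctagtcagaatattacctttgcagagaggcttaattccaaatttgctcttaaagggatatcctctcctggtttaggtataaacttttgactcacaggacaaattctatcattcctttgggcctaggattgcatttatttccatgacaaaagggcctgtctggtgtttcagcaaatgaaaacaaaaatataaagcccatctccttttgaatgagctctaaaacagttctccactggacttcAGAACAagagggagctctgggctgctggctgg
SPRY1, chr4:123396545-123396844, plus strand: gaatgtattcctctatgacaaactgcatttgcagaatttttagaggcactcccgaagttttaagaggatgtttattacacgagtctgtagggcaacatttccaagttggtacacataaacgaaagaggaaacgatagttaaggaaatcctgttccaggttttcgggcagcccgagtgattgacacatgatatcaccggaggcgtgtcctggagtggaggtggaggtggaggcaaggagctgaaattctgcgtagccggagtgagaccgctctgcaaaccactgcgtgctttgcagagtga

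The table gave 12 promoters for 8 of the 10 members. ERBB3 and DUSP4 were not among them. On either strand, 14.8% of all 35116 promoters of the same length held the half-site, and among the members EGFR (downstream promoter), ERBB2, ERBB4 and SPRY2 did. The full steroid response element, with both half-sites facing each other 3 bases apart, was found in 0.00285% of all promoters and in none of the members'. The ERBB2 half-site began 1 base before the start. Near it lay the letters of the ETS site CCGGAAGT on both strands, at 14 and 27 bases before the start, a motif held by 4.14% of all promoters and by no other member. The AP-1 site TGANTCA, in 7.71% of all promoters, was present once in ERBB2 and at 232 and 136 bases before the downstream start of EGFR. ERRFI1 had none of these letters in its window, in which 74.7% of bases were G or C against a median of 58.7% over all promoters. The half-site is part of the full element, and no other of these matches overlapped. A match is a description of letters and not of binding.

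ERRFI1, the inhibitor of ERBB kinases, showed the clearest pattern of the members: it rose 2.69-fold with DHT in sh_scramble and was not called in sh_TMEFF2. The gene lies at chr1:8004404-8026309 on the minus strand (GRCh38). Its level was 37.2, 33.4 and 37.7 CPM in sh_scramble −DHT and 85.0, 114 and 92.7 CPM in sh_scramble +DHT. The sh_TMEFF2 libraries had 35.8, 35.1 and 37.7 CPM without and 39.6, 40.3 and 40.8 CPM with DHT. The 3 sh_scramble +DHT libraries thus lay above all 9 others, and the 2 groups without DHT overlapped. Within sh_TMEFF2 the groups did not overlap, but the step was small: a log2 change of 0.15 (SE 0.10, edgeR adjusted p = 0.35). In sh_scramble the log2 change was 1.43 (SE 0.10, edgeR adjusted p = 6.2e-07). The difference between those responses was −1.28 on the log2 scale (SE 0.14, 95% interval −1.58 to −0.98, edgeR adjusted p = 0.00034). With DHT, ERRFI1 was lower in sh_TMEFF2 by a log2 change of −1.27 (SE 0.10, edgeR adjusted p = 4.8e-06), or 0.413 times its sh_scramble level. Without DHT the log2 difference between the lines was 0.00, with a 95% interval of −0.21 to 0.22. The calls were kept whichever of the 12 libraries was left out, with the difference of responses between −1.36 and −1.14. Counts per library were 651 to 2342. The annotation places an unnamed gene on the opposite strand over ERRFI1, and the counts carry no strand.

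DUSP4, a nuclear phosphatase of ERK, was the member with the largest rise in sh_scramble, 3.11-fold. Its 3 libraries of sh_scramble −DHT stood at 13.5, 13.3 and 14.4 CPM and those of sh_scramble +DHT at 39.8, 42.4 and 46.2 CPM. In sh_TMEFF2 the level was 7.88, 5.13 and 8.96 CPM without DHT and 10.6, 11.6 and 20.0 CPM with it. Every sh_TMEFF2 −DHT library was below every other, and every sh_scramble +DHT library above, while sh_TMEFF2 +DHT overlapped sh_scramble −DHT. The log2 change with DHT was 1.64 in sh_scramble (SE 0.22, edgeR adjusted p = 0.00015) and 0.94 in sh_TMEFF2 (SE 0.23, edgeR adjusted p = 0.020). With DHT the line difference was −1.61 (SE 0.22, edgeR adjusted p = 0.00035), so that sh_TMEFF2 had 0.328 times the level of sh_scramble. Without DHT it was −0.91 (SE 0.23, edgeR adjusted p = 0.091) and not called, although the groups did not overlap. In 3 of 8 other processing settings this difference was called. These were DESeq2 (−0.91, DESeq2 adjusted p = 0.0051), no filter (−0.91, edgeR adjusted p = 0.029) and the replicate number as a block (−0.93, edgeR adjusted p = 0.028). The DHT responses differed by −0.70 (SE 0.32, 95% interval −1.39 to −0.0046, edgeR adjusted p = 0.28). Replicate 3 of sh_TMEFF2 +DHT, at 20.0 CPM, weighed on these values. Without it the response in sh_TMEFF2 was 0.61 (edgeR adjusted p = 0.075) and no longer called, the difference of responses was −1.03 (edgeR adjusted p = 0.038) and the line difference without DHT had an adjusted p of 0.028, both called. Without replicate 2 of sh_TMEFF2 −DHT the response in sh_TMEFF2 was 0.74 (edgeR adjusted p = 0.078). With the first of the 2 columns that the deposited table holds for each library alone, that response was 0.80 (edgeR adjusted p = 0.056). With only the 6 libraries compared it was 0.95 (edgeR adjusted p = 0.071). None of these was called. DUSP4 lies on chromosome 8 (GRCh38, minus strand), with no annotated gene over it.

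DUSP6, the cytoplasmic phosphatase of ERK that is commonly read as a marker of ERK activity, was near the limit of detection, with 7 to 34 counts per library. In sh_scramble it had 24, 20 and 34 counts without DHT and 8, 17 and 10 with DHT, and in sh_TMEFF2 12, 23 and 33 counts without and 11, 7 and 17 with DHT. Levels without DHT were the higher ones in sh_scramble, with no overlap, and overlapped in sh_TMEFF2. The log2 changes of −1.11 (SE 0.44, edgeR adjusted p = 0.079) and −0.97 (SE 0.45, edgeR adjusted p = 0.18) were not called, and the responses differed by 0.14 (SE 0.63, 95% interval −1.22 to 1.51, edgeR adjusted p = 0.94).

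The Sprouty genes differed from each other in level and pattern. SPRY1 was measured at 7.83, 5.09 and 4.94 CPM in sh_scramble −DHT and 8.48, 7.32 and 7.95 CPM in sh_scramble +DHT. In sh_TMEFF2 it stood at 3.46, 3.28 and 3.02 CPM without DHT and at 5.23, 5.66 and 5.30 CPM with DHT. Its lowest 3 libraries were those of sh_TMEFF2 −DHT, and the DHT groups of sh_scramble overlapped through replicate 1 without DHT. With DHT, SPRY1 rose 1.66-fold in sh_TMEFF2, a log2 change of 0.73 (SE 0.18, edgeR adjusted p = 0.020). In sh_scramble the log2 change was 0.41 (SE 0.17, edgeR adjusted p = 0.10) and was not called, and the responses differed by 0.32 (SE 0.25, edgeR adjusted p = 0.59). Without DHT the gene was lower in sh_TMEFF2, at 0.546 times the sh_scramble level, with a log2 change of −0.87 (SE 0.18, edgeR adjusted p = 0.041). With DHT the log2 difference of −0.55 (SE 0.18, edgeR adjusted p = 0.049) fell short of 1.5-fold.

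The SPRY1 calls depended on single libraries and on the column used. The line difference without DHT was called without sh_scramble −DHT replicate 3 and was lost when any of the other 11 libraries was left out, with log2 values between −0.99 and −0.62 over all 12 fits. The rise in sh_TMEFF2 was lost without replicate 2 or 3 of sh_TMEFF2 −DHT and without replicate 2 or 3 of sh_TMEFF2 +DHT, at 0.69 to 0.75 with adjusted p of 0.057 to 0.062. With the second column of each library alone the rise was 0.43 (edgeR adjusted p = 0.21) and not called. The line difference without DHT was called with neither column alone, at −1.19 (edgeR adjusted p = 0.064) with the first and −0.53 (edgeR adjusted p = 0.28) with the second. Without sh_scramble −DHT replicate 1, the DHT response in sh_scramble was 0.66 (edgeR adjusted p = 0.0095) and called. SPRY1 lies at chr4:123396795-123403760 (GRCh38, plus strand). SPRY2, at 8 to 28 counts per library, gave no call in any comparison, with log2 DHT changes of 0.85 (SE 0.45) in sh_scramble and −0.16 (SE 0.45) in sh_TMEFF2.

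Among the receptors, EGFR and ERBB2 moved in opposite directions with DHT. EGFR (chr7:55019017-55211628, GRCh38, plus strand) was at 63.6, 63.0 and 95.4 CPM in sh_scramble −DHT and 107, 107 and 141 CPM in sh_scramble +DHT. The sh_TMEFF2 levels were 59.6, 43.9 and 61.4 CPM without DHT and 75.0, 73.6 and 84.6 CPM with DHT. The order of group means was sh_scramble +DHT (118 ± 19.8), sh_TMEFF2 +DHT (77.7 ± 5.95), sh_scramble −DHT (74.0 ± 18.5) and sh_TMEFF2 −DHT (55.0 ± 9.63 CPM, SD, n = 3). The middle groups overlapped, and the groups of each comparison of the design did not. EGFR rose 1.60-fold with DHT in sh_scramble, a log2 change of 0.68 (SE 0.17, edgeR adjusted p = 0.011). In sh_TMEFF2 the change was 0.50 (SE 0.17, edgeR adjusted p = 0.079) and was not called, and the responses differed by only −0.18 (SE 0.24, 95% interval −0.71 to 0.35, edgeR adjusted p = 0.79). With DHT, EGFR was lower in sh_TMEFF2, at 0.657 times the sh_scramble level (log2 −0.61, SE 0.17, edgeR adjusted p = 0.031). Without DHT the difference of −0.43 (SE 0.17, edgeR adjusted p = 0.29) was not called.

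Both EGFR calls lay close to the limits. The DHT rise in sh_scramble was not called without sh_scramble −DHT replicate 1 (log2 0.58), sh_scramble −DHT replicate 2 (0.57) or sh_scramble +DHT replicate 3 (0.53). The line difference with DHT was not called without sh_TMEFF2 +DHT replicate 1 (−0.58), 2 (−0.56) or 3 (−0.66), or without sh_scramble +DHT replicate 3 (−0.46). With library sizes in place of TMM factors that difference was −0.55 (edgeR adjusted p = 0.054). The antisense gene EGFR-AS1 lies over EGFR, and the counts carry no strand.

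ERBB2 (chr17:39687914-39730426, GRCh38, plus strand) fell with DHT. Its level was 286, 264 and 291 CPM in sh_scramble −DHT and 185, 152 and 195 CPM in sh_scramble +DHT. In sh_TMEFF2 ERBB2 stood at 319, 280 and 305 CPM without DHT and 258, 203 and 216 CPM with DHT. Within each line all libraries without DHT lay above all with DHT, the lines overlapped without DHT, and with DHT the sh_TMEFF2 libraries were the higher ones. The log2 change with DHT was −0.66 in sh_scramble (SE 0.10, edgeR adjusted p = 0.00043), 0.632 times the level without DHT. In sh_TMEFF2 it was −0.42 (SE 0.10, edgeR adjusted p = 0.019), under 1.5-fold and so not called. With DHT the line difference of 0.35 (SE 0.10, edgeR adjusted p = 0.036) was also under 1.5-fold, and the responses differed by 0.25 (SE 0.14, 95% interval −0.07 to 0.56, edgeR adjusted p = 0.43). Without replicate 2 of sh_scramble +DHT the fall in sh_scramble was −0.56 and missed the fold limit. PGAP3 and MIEN1 overlap ERBB2 on the other strand and MIR4728 lies within it on the same strand.

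The opposite movements changed the balance of the EGFR to the ERBB2 level. The ratio of their CPM, which is not corrected for length, was 0.263 ± 0.0566 in sh_scramble −DHT, 0.668 ± 0.0803 in sh_scramble +DHT, 0.182 ± 0.0229 in sh_TMEFF2 −DHT and 0.348 ± 0.0514 in sh_TMEFF2 +DHT (mean ± SD, n = 3). It was highest in sh_scramble +DHT and lowest in sh_TMEFF2 −DHT. These ratios are a description of the levels already tested.

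ERBB3, the kinase-poor partner of ERBB2, kept a level of 195 to 261 CPM in all 12 libraries. Its log2 changes were −0.04 (SE 0.09) and −0.14 (SE 0.09) with DHT in sh_scramble and sh_TMEFF2, and −0.06 (SE 0.09) and −0.16 (SE 0.09) between the lines without and with DHT. None was called, and the 95% intervals of these 4 values lay within −0.36 to 0.16. The lowest library was sh_TMEFF2 −DHT replicate 1 at 195 CPM, while the other 2 of its group had 248 and 261 CPM. The gene (chr12:56076799-56103505, GRCh38, plus strand) overlaps an unnamed gene on its own strand.

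MET and ERBB4 were barely detected. MET had 23, 13 and 20 counts in sh_scramble −DHT, 31, 16 and 16 in sh_scramble +DHT, 16, 19 and 18 in sh_TMEFF2 −DHT and 49, 71 and 15 in sh_TMEFF2 +DHT. The 2 highest libraries of the series were thus in sh_TMEFF2 +DHT, and the third of that group was below all 3 without DHT. The log2 response in sh_TMEFF2 was 1.33 (SE 0.48, edgeR adjusted p = 0.088) and the line difference with DHT 0.97 (SE 0.47, edgeR adjusted p = 0.19). Both were called without replicate 3 of sh_TMEFF2 +DHT, at 1.76 (edgeR adjusted p = 0.016) and 1.40 (edgeR adjusted p = 0.022), and fell to 0.85 (edgeR adjusted p = 0.33) and 0.49 (edgeR adjusted p = 0.57) without replicate 2 of that group. ERBB4 had 11, 0 and 4 counts in sh_scramble −DHT, 0, 11 and 0 in sh_scramble +DHT, 12, 51 and 11 in sh_TMEFF2 −DHT and 23, 13 and 1 in sh_TMEFF2 +DHT. At these counts no fold change is given for ERBB4.

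**Figure D2:**
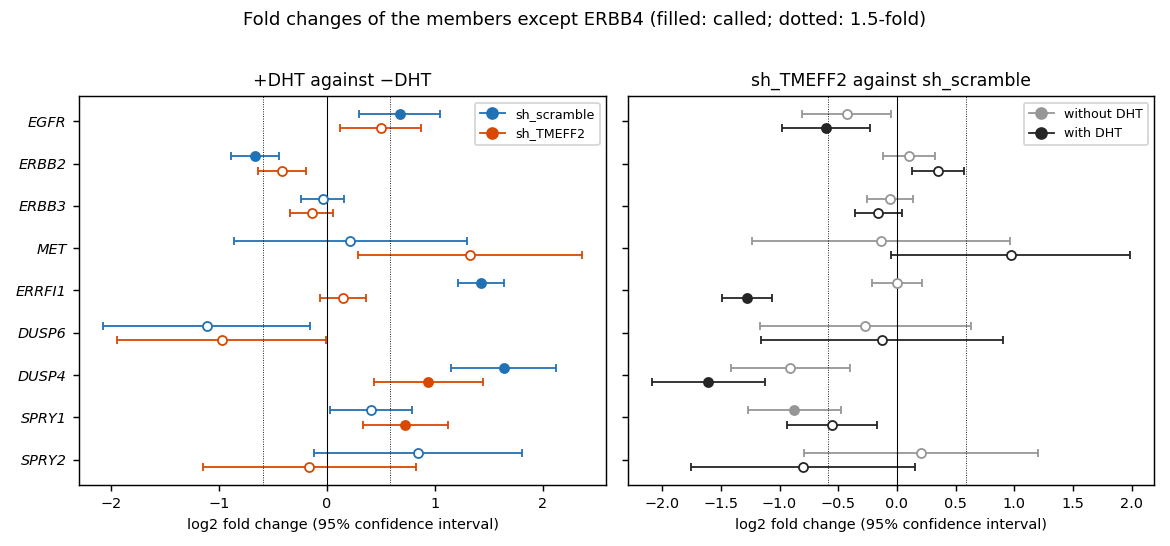
Log2 fold changes of the members except ERBB4 (horizontal axis, with 95% confidence intervals), left for +DHT against −DHT in each line and right for sh_TMEFF2 against sh_scramble at each DHT level. Filled points are called and dotted lines mark 1.5-fold. ERRFI1 is at 1.43 in sh_scramble and 0.15 in sh_TMEFF2, with intervals that do not meet.

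The rest of the pathway was read from 5 lists with 67 genes, of which 58 could be tested. These lists were also chosen with earlier results of these data known. In sh_scramble DHT called 8 of 58 (13.8%, against 11.9% of all genes), LRIG1 higher and EPHA2, HBEGF, LRIG3, NRG3, PHLDA1, SOS2 and TGFA lower. In sh_TMEFF2 it called 1 (1.72% against 4.88%), EGR1 lower. Between the lines 4 were called with DHT (6.90% against 6.77%), EPHA2 and LRIG3 higher and HPN and LRIG1 lower in sh_TMEFF2, and 0 without DHT in edgeR (0.571% of all genes), where 7 had an unadjusted p under 0.05 and DESeq2 called 1. The DHT responses differed for 2 (3.45% against 4.94%), LRIG3 and NRG3. The median log2 fold change of the 58 genes was −0.01 and −0.13 with DHT in sh_scramble and sh_TMEFF2, and 0.01 and −0.02 between the lines without and with DHT.

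Of the 12 ligands 6 were tested, and 3 of them were called lower with DHT in sh_scramble, where 6.45% of all genes were called lower. AREG, BTC, EPGN, NRG1, NRG2 and HGF were too low, with HGF, the ligand of MET, listed at 0 in every library. TGFA, the transforming growth factor alpha that binds EGFR, was at 6.15, 7.96 and 8.76 CPM in sh_scramble −DHT and 3.43, 2.83 and 4.25 CPM in sh_scramble +DHT. In sh_TMEFF2 it was at 6.83, 6.24 and 6.03 CPM without and 5.09, 5.39 and 5.21 CPM with DHT. The sh_scramble +DHT libraries were the lowest 3 of all. The log2 change was −1.12 in sh_scramble (SE 0.18, edgeR adjusted p = 0.00048) and −0.28 in sh_TMEFF2 (SE 0.17, edgeR adjusted p = 0.32), and the difference of 0.84 (SE 0.25, edgeR adjusted p = 0.076) was not called.

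NRG3, a neuregulin that binds ERBB4, had the largest response of the ligands. It stood at 4.53, 3.96 and 3.48 CPM in sh_scramble −DHT and 0.61, 0.54 and 0.60 CPM in sh_scramble +DHT, with 11 to 12 counts in the latter. In sh_TMEFF2 it was at 2.64, 1.64 and 1.81 CPM without and 1.53, 0.78 and 0.98 CPM with DHT. No 2 of the 4 groups overlapped. The log2 change was −2.77 in sh_scramble (SE 0.30, edgeR adjusted p = 2.9e-05) and −0.89 in sh_TMEFF2 (SE 0.29, edgeR adjusted p = 0.059), and the responses differed by 1.88 (SE 0.42, edgeR adjusted p = 0.021). That last call was lost without sh_TMEFF2 +DHT replicate 1 (1.57), sh_TMEFF2 −DHT replicate 2 (1.75), sh_scramble +DHT replicate 2 (1.83) or sh_scramble −DHT replicate 1 (1.78). With the second of the 2 columns that the deposited table holds for each library alone it was 1.80 (edgeR adjusted p = 0.12) and not called either. Without sh_TMEFF2 +DHT replicate 1 the response in sh_TMEFF2 was called at −1.20. HBEGF, the heparin-binding ligand of EGFR and ERBB4, changed by −0.71 in sh_scramble (SE 0.18, edgeR adjusted p = 0.0098), and by −0.57 and under the fold limit without sh_scramble +DHT replicate 1. With the first column of each library alone it was −0.47 (edgeR adjusted p = 0.16) and not called. Of the ligand-processing genes, HPN, the membrane serine protease hepsin, was lower in sh_TMEFF2 with DHT by a log2 change of −0.62 (SE 0.10, edgeR adjusted p = 0.0013), but under 1.5-fold without sh_scramble +DHT replicate 1 (−0.58) or 3 (−0.53).

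Among 18 listed brakes of receptors and RAS, both called genes were of the LRIG family of membrane proteins, of which LRIG1 promotes the degradation of ERBB receptors. With DHT in sh_scramble they were 11.1% of the list, where 11.9% of all genes were called. Between the lines with DHT they were 11.1% as well, where 6.77% of all genes were called. LRIG1 was at 101, 116 and 103 CPM in sh_scramble −DHT and 168, 206 and 221 CPM in sh_scramble +DHT. The sh_TMEFF2 libraries had 83.3, 72.1 and 106 CPM without and 88.6, 103 and 110 CPM with DHT. As for ERRFI1, the 3 sh_scramble +DHT libraries were the highest. The log2 change was 0.89 in sh_scramble (SE 0.14, edgeR adjusted p = 0.00043), the line difference with DHT −0.98 (SE 0.14, edgeR adjusted p = 0.00043), and the difference of responses −0.69 (SE 0.20, edgeR adjusted p = 0.067), which was not called.

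LRIG3 went the other way. It was at 23.2, 19.7 and 22.3 CPM in sh_scramble −DHT and 9.69, 10.4 and 9.20 CPM in sh_scramble +DHT, against 22.7, 18.4 and 21.0 CPM and 21.8, 17.3 and 18.9 CPM in sh_TMEFF2 without and with DHT. The sh_scramble +DHT libraries lay below all 9 others, which overlapped. The log2 change was −1.15 in sh_scramble (SE 0.12, edgeR adjusted p = 1.8e-05) and −0.10 in sh_TMEFF2 (SE 0.11, edgeR adjusted p = 0.64), with a difference of 1.06 (SE 0.16, edgeR adjusted p = 0.0031). Over the other processing settings the response in sh_TMEFF2 ranged from −0.55 to 0.29 and was called in none. With the second column of each library alone the difference was 0.56 (edgeR adjusted p = 0.27) and not called, and with the first it was 1.48 (edgeR adjusted p = 0.016) and called. With DHT the line difference was 0.98 (SE 0.12, edgeR adjusted p = 0.00013).

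With DHT in sh_scramble, 1 of 18 relay genes and 2 of the 7 ERK-responsive genes that could be tested were called, all lower. Of all genes 11.9% were called there and 6.45% were lower. SOS2, an exchange factor that loads RAS with GTP, changed by −0.60 with DHT in sh_scramble (SE 0.08, edgeR adjusted p = 0.00021), and was under 1.5-fold without sh_scramble −DHT replicate 2 (−0.53) or sh_scramble +DHT replicate 2 (−0.57). EPHA2, an ephrin receptor, changed by −0.70 with DHT in sh_scramble (SE 0.23, edgeR adjusted p = 0.041) and was higher in sh_TMEFF2 with DHT by 0.73 (SE 0.23, edgeR adjusted p = 0.049). The first call was lost in 6 of the 12 fits that leave out 1 library, those without sh_scramble −DHT replicate 1 or 3, sh_scramble +DHT replicate 1 or 3, sh_TMEFF2 −DHT replicate 3 or sh_TMEFF2 +DHT replicate 2 (−0.71 to −0.56). The second was lost in all of them but those without sh_scramble +DHT replicate 2 or sh_TMEFF2 +DHT replicate 3 (0.56 to 0.75 where lost). Both were lost as well without a filter, with only the 6 libraries compared and with the first column of each library alone, where they were −0.26 (edgeR adjusted p = 0.64) and 0.49 (edgeR adjusted p = 0.39). PHLDA1, at −0.92 in sh_scramble (SE 0.32, edgeR adjusted p = 0.047), had overlapping groups and was lost in 9 of the 12 fits, the exceptions being those without sh_scramble −DHT replicate 3, sh_scramble +DHT replicate 1 or sh_TMEFF2 −DHT replicate 2 (−0.92 to −0.72 where lost). EGR1, an immediate early transcription factor, had 10 to 35 counts in sh_TMEFF2 and changed there by −1.34 with DHT (SE 0.36, edgeR adjusted p = 0.028), a call lost without replicate 1 or 3 of sh_TMEFF2 −DHT or replicate 2 or 3 of sh_TMEFF2 +DHT (−1.31 to −1.16). With only the 6 libraries compared, PHLDA1 (−0.92, edgeR adjusted p = 0.078) and EGR1 (−1.34, edgeR adjusted p = 0.055) were not called either. Neither was PHLDA1 with the second column alone (−0.73, edgeR adjusted p = 0.23), nor EGR1 with the first (−1.61, edgeR adjusted p = 0.055).

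**Figure D3:**
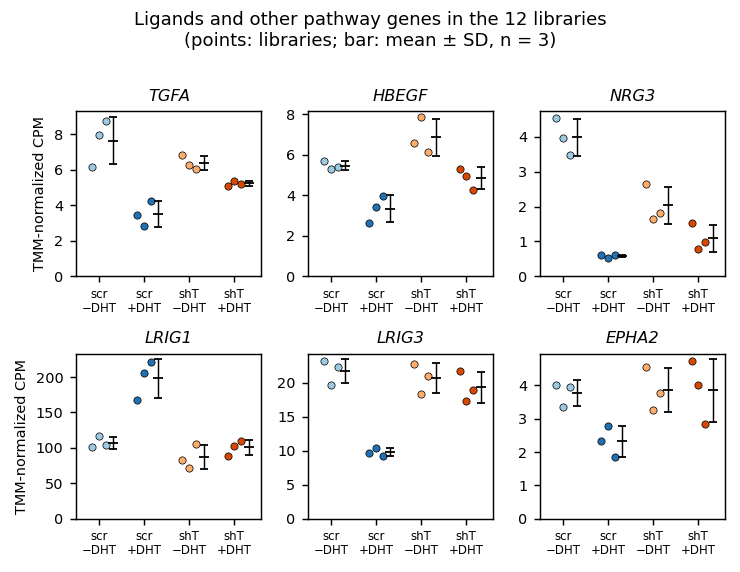
TMM-normalized CPM (vertical axis, linear, a scale for each gene) of 3 ligands, 2 LRIG genes and EPHA2 in the 12 libraries, with scr for sh_scramble and shT for sh_TMEFF2. Points are libraries and bars the mean ± SD (n = 3). LRIG3 lies at 9.20 to 10.4 CPM in sh_scramble +DHT and at 17.3 to 23.2 CPM in the other groups.

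**Figure D4:**
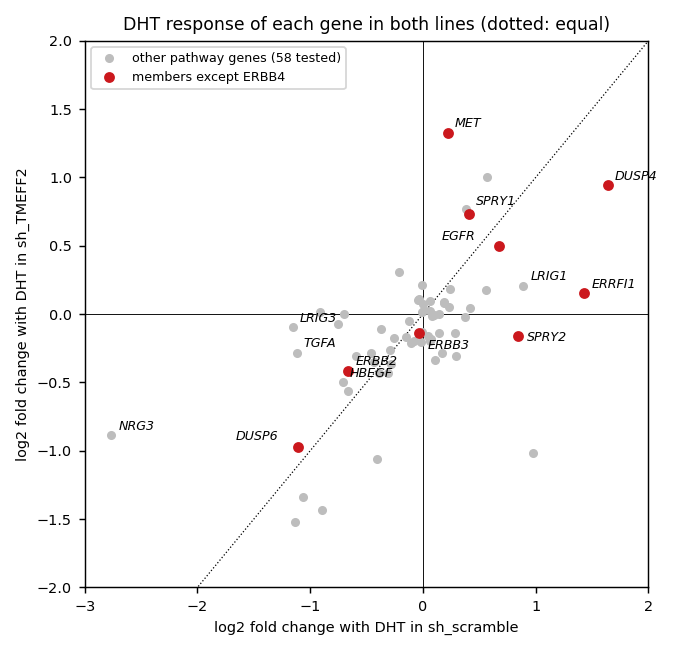
Log2 fold change with DHT in sh_scramble (horizontal axis) and in sh_TMEFF2 (vertical axis) for the members except ERBB4 (red) and the 58 other pathway genes (grey). The dotted line marks equal responses. ERRFI1 (1.43 and 0.15), LRIG3 (−1.15 and −0.10) and NRG3 (−2.77 and −0.89) lie off it.

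The pattern of the called members over the 12 libraries was compared with that of 11155 genes at a mean of at least 5 CPM, as Pearson's r of log2 CPM. These libraries share groups and treatments, so r is a description and carries no test. The genes most like EGFR were HK2 (0.97), DARS (0.96) and QSOX2 (0.96), and most like ERBB2 were SEPT6 (0.98), IRF5 (0.98) and PHC1P1 (0.97). For ERRFI1 they were STEAP4 (0.98), NDFIP2 (0.98) and MTMR9 (0.98), and for DUSP4 they were SETD3 (0.99), TASP1 (0.98) and PTPRJ (0.98). SPRY1 was most like KLK4 (0.95), KLK2 (0.93) and KLK3 (0.92), which are androgen-responsive kallikreins. Among the members, EGFR and DUSP4 had r = 0.93 and ERRFI1 and DUSP4 r = 0.89, while ERBB2 and ERRFI1 had r = −0.86 over the 12 libraries.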

How the data were processed

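RNA-Seq of 12 LNCaP libraries was used, in 4 groups of 3 taken from the labels. Per the study's methods and the submitters' processing notes, the authors checked reads with FastQC, filtered out contaminants, trimmed with Trimmomatic and quantified transcripts on GRCh38 with kallisto 0.42.3. The deposited table holds estimated counts per gene, expected counts scaled by transcript length and library size, so that a switch between transcripts of unlike length does not by itself alter a gene's count. Of its 24 columns, 2 belong to each library. On a chi-square measure that is 1 under sampling alone, the 2 columns of a library gave 2.51 to 2.79. Replicates of a group gave 5.04 to 6.53, but were compared as sums, at greater depth, so these values are not on an equal footing. The columns were taken for repeat runs, which their names do not state, and summed into 1 value. Depth per library was 19450866 to 22612046 counts. A further column of no library was not found.

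Sums were rounded and fitted in R 4.3.3 with edgeR 4.0.16 (TMM, filterByExpr with a minimum count of 10 and a minimum total of 15, quasi-likelihood test) over all 12 libraries, with 1 coefficient per group and contrasts for DHT within each line, for the lines at each DHT level and for the difference of the DHT responses. SEs were derived from the fold change and the test statistic. Thresholds were the study's, 1.5-fold and an adjusted p of 0.05, and the difference of responses was called on the adjusted p alone. The study applied its thresholds with DESeq2, after removing transcripts with a mean of 5 CPM or less, so the calls here are not the study's. DESeq2 1.42.0, other scalings, filters and single columns were alternatives. The scripts were tested on simulated data. The results of some listed marker genes are not reported here. The members and lists were chosen with earlier results of these data known. Genes named were the members, TMEFF2, every called ligand and ERK-responsive gene, in every other list the called gene with the smallest p in each direction, and the 3 genes most correlated with each called member.

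Gene positions came from the GENCODE annotation of GRCh38 and promoters from RefSeq.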

Additional observations from a re-analysis of the deposited data

Results flagged for a closer look

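The DHT response differed between sh_scramble and sh_TMEFF2 by edgeR's test of the difference itself for 1 member and for 2 of the other pathway genes. For ERRFI1 the response in sh_TMEFF2 was lower by a log2 value of −1.28 (SE 0.14, edgeR adjusted p = 0.00034), and the rise seen in sh_scramble was not called in sh_TMEFF2. For LRIG3 the difference was 1.06 (SE 0.16, edgeR adjusted p = 0.0031), or 0.56 (edgeR adjusted p = 0.27) and not called with the second column of each library alone, and the fall seen in sh_scramble was not called in sh_TMEFF2. For NRG3 it was 1.88 (SE 0.42, edgeR adjusted p = 0.021), or 1.80 (edgeR adjusted p = 0.12) and not called with that column alone, with lower levels after DHT in both lines and the larger step in sh_scramble. Over all 15419 genes 761 such differences were called, or 4.94%. The summed level of the luminal markers, in which KLK3 is the largest after DHT in sh_scramble and FOLH1 went the other way there, reached 12041 to 12929 CPM in sh_scramble +DHT and 4568 to 5631 CPM in sh_TMEFF2 +DHT, and its part in these differences was not tested. Of these markers, KLK2 and KLK3 were called higher with DHT in both lines, and their responses were not called different.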

How the results depend on the processing

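Alternatives were DESeq2, scaling by library size instead of TMM, no filter, a mean above 5 CPM, fits of only the 6 libraries compared, a replicate block, the omission of single libraries and, chosen after seeing the data, either column of each library alone. Without DHT between the lines, the 1 member called became 2 with DESeq2, without a filter and with the replicate block (SPRY1 and DUSP4), and 0 with 6 libraries or either column alone. The other pathway genes called went from 0 to 1 with DESeq2 and with the block, and all genes called from 88 to 180 with DESeq2, 157 without a filter, 144 with the block, 46 with 6 libraries or the first column and 50 with the second column. In sh_TMEFF2 the DHT response called 1 member with 6 libraries or either column, and 0 other pathway genes with the 5 CPM filter, 6 libraries or the second column against 3 with the block. In sh_scramble it called 5 other pathway genes with the 5 CPM filter. The difference of responses was called for 6 other pathway genes with DESeq2, 4 with the block and 1 with the 5 CPM filter or the second column, and for 1199 of all genes with DESeq2 and 494 with the second column. Beyond the fewer libraries, counts or genes that some of these use, the cause was not tested.

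With 1 library left out, the members called were 0 to 1 between the lines without DHT, 0 to 2 for DHT in sh_TMEFF2 and 1 to 2 for the difference of responses. Other pathway genes called were 0 to 1, 0 to 2 and 1 to 3 there, and 2 to 5 between the lines with DHT. All genes called were 32 to 117 between the lines without DHT, 466 to 902 for DHT in sh_TMEFF2 and 465 to 765 for the difference of responses.

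Signs turned only in values that were not called. Between the lines without DHT, ERRFI1 was at −0.0075 with library sizes and −0.0042 with the second column, ERBB3 at 0.026, DUSP6 at 0.11 and MET at 0.18 with the second column. With the second column ERBB3 was also at 0.094 for DHT in sh_scramble, and the difference of responses at −1.04 for DUSP6 and −0.15 for SPRY1. With the first column DUSP6 was at 0.33 between the lines with DHT and LRIG3 at 0.29 for DHT in sh_TMEFF2. With 1 library left out the ranges were −0.089 to 0.0096 for ERBB3 and −0.19 to 0.40 for MET (DHT in sh_scramble), −0.57 to 0.29 for SPRY2 (DHT in sh_TMEFF2), −0.20 to 0.53 for DUSP6 (difference of responses), −0.47 to 0.24 for DUSP6 (lines with DHT), and, between the lines without DHT, −0.64 to 0.016 for DUSP6, −0.14 to 0.058 for ERBB3, −0.050 to 0.040 for ERRFI1 and −0.24 to 0.53 for SPRY2.

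The shared replicate numbers did not meet the limit for pairing, r over 0.1 in every same-number pair: deviations from the group means correlated at −0.0017 to 0.169 over 18 same-number pairs, 3 of them over 0.1, although 12 of 12 libraries correlated best with their own number, a hint from the data and not the design. With the replicate block DUSP4 between the lines without DHT was called at −0.93 (edgeR adjusted p = 0.028), NRG3 for DHT in sh_TMEFF2 at −0.90 (edgeR adjusted p = 0.026), and no call of a member was lost. In the comparison of the lines with DHT, EGFR was called at none of the first column (−0.48), library sizes (−0.55) and the 5 CPM filter (−0.58). ERRFI1 and DUSP4 kept their calls for DHT in sh_scramble and between the lines with DHT under every alternative. MET, DUSP6, SPRY2 and ERBB4, at 0 to 71 counts per library, are limited by depth.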
